A study of Homo sapiens with 32 samples.

Results

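Antisense noncoding RNA genes are annotated on the strand opposite a named partner and carry the suffix -AS and a digit. The genes were taken from the RefSeq table of GRCh38.p14 by that suffix, with SLC38A4-AS1 and the HOX genes left out, on chromosomes 1 to 22 and X. This gave 2028 genes of 59098 in the table, 2013 of them annotated as lncRNA, with a median length of 9944 bp. A peak was a member if it overlapped such a gene body on either strand, and 11093 of the 338017 peaks in 12 peak lists did so. Of the 2028 genes, 929 held a peak in at least 1 list and 1099 held none.

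The data are N6-methyladenosine (m6A) maps of chromatin-associated RNA made by MeRIP-seq, where an antibody against m6A enriches RNA fragments before sequencing. The lists are labelled as knockdown of METTL3 by an shRNA or as its control, in LOVO and RKO, which are colorectal cancer lines, and in OVCAR8 and SKOV3, which are ovarian cancer lines. LOVO and RKO had 1 list per group, so their differences have no replicate check, and OVCAR8 and SKOV3 had 2 lists per group. Control libraries carry a control shRNA in OVCAR8 and SKOV3 by their titles. In LOVO and RKO the titles say only control, while the peak names in the control lists cite a control shRNA.

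m6A is the most common internal modification of messenger RNA, and METTL3 is the catalytic subunit of the nuclear methyltransferase that writes it, often within short sequences built around the core GGAC. Antisense transcripts often start near the promoter of the partner gene or run into its end, and because the pair shares DNA, reads from the pair can be separated only by strand. Several are well known: CDKN2B-AS1 (ANRIL) is a transcript of the tumour suppressor locus holding CDKN2A and CDKN2B, DDX11-AS1 (CONCR) acts in sister chromatid cohesion, and AFAP1-AS1 is often abundant in carcinomas.

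The following RefSeq GRCh38.p14 promoter windows, 250 bases before to 50 bases after the annotated start, are shown because a peak on 1 strand lay over each of them in all 12 lists. They were chosen after the values were seen. Capitals mark GGACT on the gene's strand and AGTCC, the same letters on the other strand. The first 3 carried the peak on the strand of the antisense gene and the last 2 on the strand of the partner.
WARS2-AS1 (chr1:119140146-119140445, plus strand): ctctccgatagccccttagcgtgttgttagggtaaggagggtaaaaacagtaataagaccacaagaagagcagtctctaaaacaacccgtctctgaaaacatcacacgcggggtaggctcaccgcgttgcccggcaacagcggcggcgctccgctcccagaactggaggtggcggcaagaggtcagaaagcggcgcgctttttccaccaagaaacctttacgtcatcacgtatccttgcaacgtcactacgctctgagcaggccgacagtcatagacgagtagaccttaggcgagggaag
GTF3C2-AS2 (chr2:27356890-27357189, plus strand): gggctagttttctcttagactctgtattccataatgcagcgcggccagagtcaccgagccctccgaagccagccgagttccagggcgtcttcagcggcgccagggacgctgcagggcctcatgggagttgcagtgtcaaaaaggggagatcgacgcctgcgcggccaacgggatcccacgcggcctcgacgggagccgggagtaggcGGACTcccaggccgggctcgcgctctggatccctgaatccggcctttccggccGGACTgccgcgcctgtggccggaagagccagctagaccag
SAP30L-AS1 (chr5:154445773-154446072, minus strand): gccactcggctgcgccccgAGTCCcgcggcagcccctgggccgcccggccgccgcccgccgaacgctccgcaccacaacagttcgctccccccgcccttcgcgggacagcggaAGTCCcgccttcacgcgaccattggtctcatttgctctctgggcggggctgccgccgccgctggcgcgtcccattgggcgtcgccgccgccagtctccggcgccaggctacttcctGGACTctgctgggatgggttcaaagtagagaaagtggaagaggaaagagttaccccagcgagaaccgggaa
PITX1-AS1 (chr5:135033024-135033323, plus strand): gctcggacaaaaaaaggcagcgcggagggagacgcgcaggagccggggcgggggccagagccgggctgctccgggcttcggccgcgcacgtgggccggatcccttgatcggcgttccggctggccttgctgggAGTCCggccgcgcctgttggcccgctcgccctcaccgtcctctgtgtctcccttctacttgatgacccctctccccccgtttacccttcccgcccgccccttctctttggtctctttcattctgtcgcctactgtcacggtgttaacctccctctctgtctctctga
STXBP5-AS1 (chr6:147204565-147204864, minus strand): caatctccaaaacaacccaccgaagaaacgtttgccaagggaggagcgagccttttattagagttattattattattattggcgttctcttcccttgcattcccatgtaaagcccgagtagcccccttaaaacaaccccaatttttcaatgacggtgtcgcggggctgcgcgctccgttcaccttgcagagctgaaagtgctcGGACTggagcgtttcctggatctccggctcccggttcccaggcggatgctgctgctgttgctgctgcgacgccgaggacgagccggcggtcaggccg
The GTF3C2-AS2 window holds GGACT 2 times on its own strand, the SAP30L-AS1 window 1 time on its own strand and 2 times on the other, and the WARS2-AS1 window on neither. GGACT stood on the gene's strand in 24.8% of 1716 antisense promoter windows and in 25.3% of all 34961 windows, and on either strand in 44.3% and 44.1%. A match describes these letters only.

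The sixth column of the lists gives a strand for each peak. Of peaks lying in a single coding gene, 94.1% to 95.3% were on the strand of that gene in 11 lists and 87.2% in the list labelled RKO knockdown, so the column was read as the strand of the RNA. The gene strand came from the RefSeq promoter table, which covers 1513 of the 2028 genes. The other 515, AFAP1-AS1 among them, are described by plus and minus strand only.

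Some libraries did not match their labels in these genes. Of antisense-gene peaks in the libraries labelled OVCAR8 knockdown, on average 97.8% overlapped a same-strand peak of SKOV3 control and 64.5% one of OVCAR8 control. Of those in the libraries labelled SKOV3 knockdown, 83.0% overlapped an OVCAR8 control peak and 57.1% a SKOV3 control peak. The list labelled RKO knockdown had 37.1% of its antisense-gene peaks on RKO control peaks and 37.6% on LOVO control peaks, whereas 77.5% of LOVO knockdown peaks lay on a LOVO control peak. Replicates shared on average 87.5% to 90.5%. Directions in OVCAR8, SKOV3 and RKO are therefore those of the labels, and LOVO is the line in which knockdown and control lists were most alike by this measure.

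The number of peaks in antisense genes was lower in knockdown in 3 of the 4 lines, without passing the test. LOVO had 1015 such peaks in knockdown and 1193 in control. RKO had 1335 in knockdown and 1167 in control. OVCAR8 had 531 and 536 in knockdown, against 832 and 843 in control. SKOV3 had 824 and 850 in knockdown, against 976 and 991 in control. The ovarian groups did not overlap, and RKO ran the other way. All peaks together numbered 15484 and 15744 in OVCAR8 knockdown, against 28237 and 28774 in control. In SKOV3 they numbered 26178 and 26865 in knockdown, against 28918 and 29102 in control, so these groups did not overlap either. In LOVO all peaks were 31060 in knockdown and 36242 in control. In RKO they were 34015 in knockdown and 37398 in control, the reverse of its antisense-gene peaks. The mean difference over lines was -0.23 on the log2 scale (two-sided exact permutation test within lines, 144 arrangements, p = 0.0833, adjusted p = 0.315 over 4 measures, smallest p 0.0139). The labels do not state whether replicates are separate cultures, and p-values here reflect only the spread between lists, which may be technical. The same arrangement without the RKO lists gave -0.37 (exact permutation p = 0.0278, the smallest that design allows, adjusted p = 0.111). Input RNA was not analysed here, so a missing peak and less RNA cannot be told apart.

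Antisense genes held between 2.93% and 3.92% of the peaks of a list. They took 3.27% of peaks in LOVO knockdown and 3.29% in LOVO control. In RKO the shares were 3.92% in knockdown and 3.12% in control. In OVCAR8 they were 3.43% and 3.40% in knockdown, against 2.95% and 2.93% in control. In SKOV3 they were 3.15% and 3.16% in knockdown, against 3.38% and 3.41% in control. The mean difference of 0.256 percentage points did not pass the test (two-sided exact permutation p = 0.236, adjusted p = 0.315), and it was positive in 2 of the 4 lines.

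More peaks in these gene bodies lay on the opposite strand than on the strand of the antisense RNA, in every list. Where the strand was known, LOVO knockdown had 346 peaks on the own strand and 467 on the opposite one, and LOVO control had 436 and 534. RKO knockdown had 505 on the own strand and 548 on the opposite one, and RKO control had 400 and 538. The own-strand share was 42.6% in LOVO knockdown and 44.9% in LOVO control, 47.96% in RKO knockdown and 42.6% in RKO control. In OVCAR8 it was 38.9% and 37.9% in knockdown, against 37.0% and 37.8% in control. In SKOV3 it was 38.9% and 37.2% in knockdown, against 42.3% and 43.3% in control. The mean difference was -0.19 percentage points (two-sided exact permutation p = 0.972, adjusted p = 0.972). Another gene was annotated on the peak's strand at 77.0% of opposite-strand peaks in the list labelled RKO knockdown and at 81.3% to 87.1% in the other lists. No gene of the peak's strand or of unlisted strand was annotated at 12.6% of opposite-strand peaks in the list labelled RKO knockdown and at 2.97% to 4.76% in the other lists. Of own-strand peaks, 52 of 346 in LOVO knockdown and 52 of 436 in LOVO control also had another gene on their strand. The same held for 45 of 505 in RKO knockdown, 41 of 400 in RKO control and 13 to 31 per ovarian list. Strand alone does not assign such peaks to the antisense RNA.

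**Figure D1:**
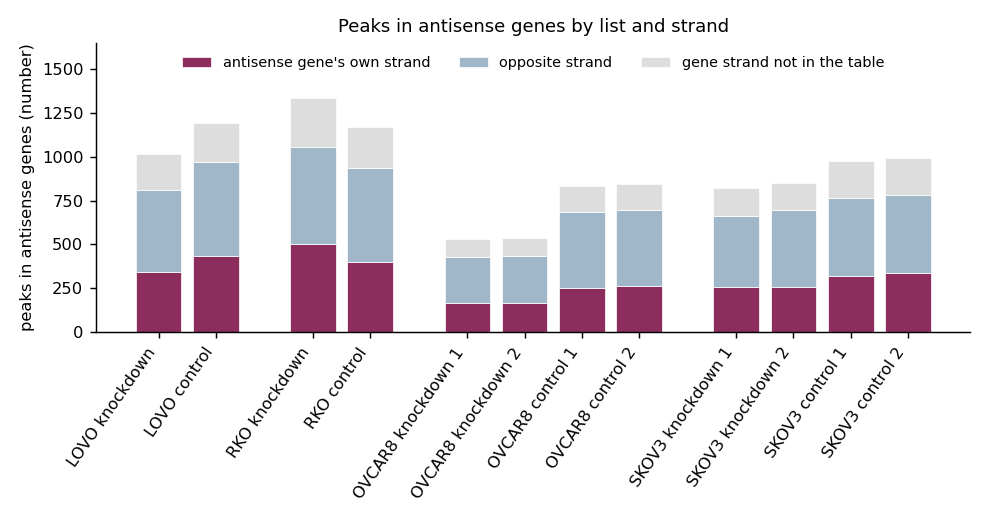
Peaks in antisense genes in each of the 12 lists (bars, number of peaks), split by whether the peak lies on the strand of the antisense gene, on the opposite strand, or in a gene whose strand the table lacks. In every list the opposite-strand segment is larger than the own-strand segment, for example 467 against 346 peaks in LOVO knockdown.

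Between 16.4% and 22.1% of antisense-gene peaks touched no other gene. The share was 17.7% in LOVO knockdown and 20.7% in LOVO control, and 22.1% in RKO knockdown and 20.4% in RKO control. It was 17.7% and 16.4% in OVCAR8 knockdown, against 16.6% in each OVCAR8 control list, and 16.9% and 16.4% in SKOV3 knockdown, against 21.2% and 21.9% in SKOV3 control. The mean difference of -1.44 percentage points did not pass the test (two-sided exact permutation p = 0.167, adjusted p = 0.315).

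The strand of the peaks differed with the layout of the gene pair. Where the antisense gene did not overlap its partner, 75.8% of 592 peaks were on the own strand. The share was 48.03% where it spanned the partner, 42.8% where it overlapped the partner's start, 41.1% where it overlapped the end, and 25.0% where it lay within the partner. In single lists the range was 53.3% to 95.2% without overlap and 22.01% to 33.7% within the partner, so these layouts did not overlap in any list. Of 1298 pairs on opposite strands, between 73 and 193 antisense genes per list had an own-strand peak. The partner also had a peak on its strand in 67.2% of such pairs in LOVO knockdown and 71.4% in LOVO control, against 48.5% and 51.5% of the pairs whose antisense gene had none. These are counts over gene pairs in single lists, and pairs are not replicates.

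**Figure D2:**
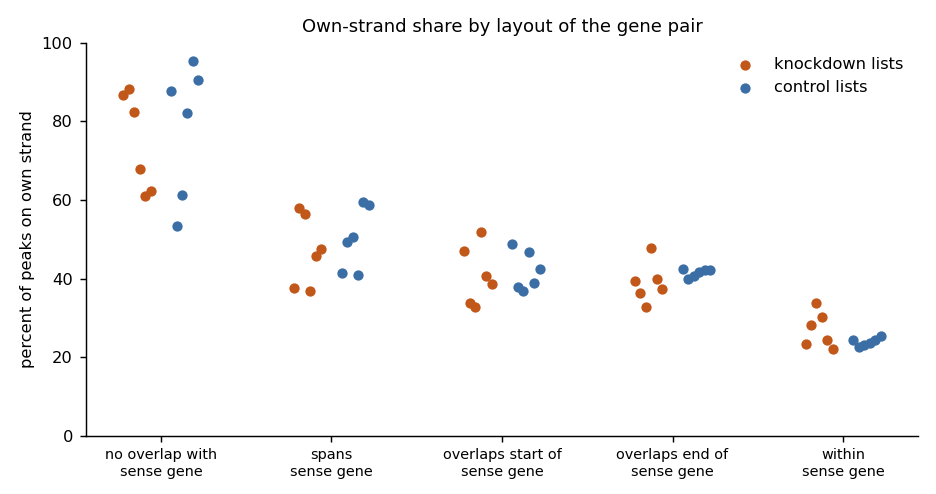
Percent of peaks on the antisense gene's own strand by the layout of the gene pair, with 1 point per list, knockdown lists left and control lists right. The share lies between 53.3% and 95.2% where the genes do not overlap and between 22.01% and 33.7% where the antisense gene lies within its partner.

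Own-strand peaks were most frequent near the start of the antisense gene. A median of 36.8% of them lay in the first 20% of the gene body (31.0% to 41.5% over the lists), against 18.3% in the last 20% (13.8% to 28.1%). The 2 ends were closest in the list labelled RKO knockdown, with 31.0% and 28.1%. For opposite-strand peaks the medians were 28.0% and 20.4%. The order was reversed in LOVO control, with 22.4% and 23.5%, and in RKO control, with 19.9% and 23.6%. An own-strand peak lay over 1.86% of antisense promoter windows in LOVO knockdown and 1.46% in LOVO control, against 3.93% and 2.23% of all windows. An opposite-strand peak lay over 5.71% of them in LOVO knockdown and 4.08% in LOVO control, against 2.16% and 1.56% of all windows. All windows include those of the antisense genes. In the 12 lists an own-strand peak lay over 16 to 52 of the 1716 antisense windows and an opposite-strand peak over 55 to 107.

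**Figure D3:**
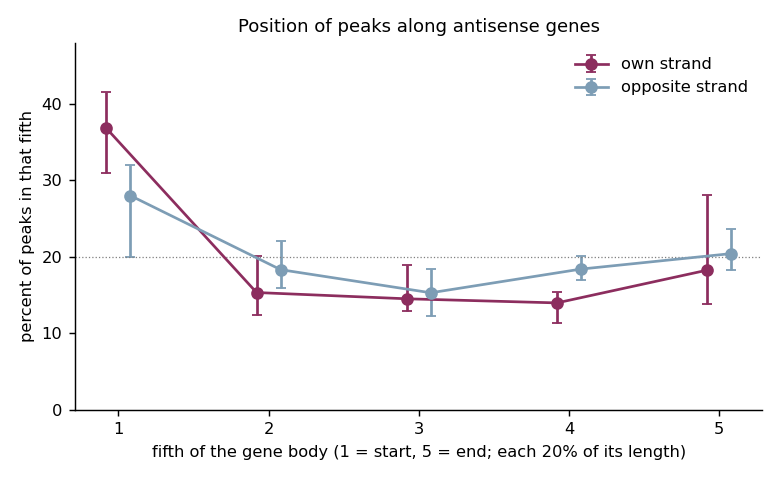
Percent of peaks with their midpoint in each 20% of the antisense gene body, read from the gene's start. Points are medians over 12 lists, bars run from the lowest to the highest list, and the dotted line marks an even spread of 20%; the own-strand median is 36.8% in the first 20%.

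In 7 windows an own-strand peak was present in all 12 lists. WARS2 is the mitochondrial tryptophanyl-tRNA synthetase, and the peak over the WARS2-AS1 window had folds of 13.8 and 13.6 in OVCAR8 knockdown, against 12.2 and 7.07 in OVCAR8 control. Fold here is the authors' enrichment of a peak over background. In SKOV3 the folds were 13.5 and 9.80 in knockdown, against 14.5 and 11.1 in control. Ranked by p-value, in these 8 lists the peak stood between the 81.0 and 97.0 percentile of its list. GTF3C2-AS2, whose partner is a subunit of the RNA polymerase III factor TFIIIC, varied more, as did the width of its peak: folds were 6.51 and 4.001 in OVCAR8 knockdown, against 12.01 and 11.2 in OVCAR8 control. Over the SAP30L-AS1 window, whose partner is related to a subunit of the Sin3 deacetylase complex, folds ran only from 4.69 to 6.41 in the 8 ovarian lists. The other 4 windows, named after their values were seen, were those of ABHD16B-AS1, ARRDC1-AS1, CKMT2-AS1 and KCNJ6-AS1, and the last of these lies inside DYRK1A on the same strand. An opposite-strand peak was present in all lists at 12 windows. At PITX1-AS1 it lay in PITX1, a transcription factor of limb and pituitary development, with folds of 10.9 to 21.7 in the ovarian lists. At STXBP5-AS1 it lay at the start of STXBP5, a syntaxin-binding protein. Over the whole region the highest folds were 23.2 and 22.6 in OVCAR8 knockdown, against 13.98 and 11.47 in OVCAR8 control, and 11.9 and 11.7 in SKOV3 knockdown, against 20.02 and 20.3 in SKOV3 control. In both OVCAR8 control lists and 1 SKOV3 knockdown list the call was split, and the shorter peak that touched the window had folds of 5.97, 5.70 and 4.94. Among the ovarian lists, those labelled OVCAR8 knockdown and SKOV3 control were the highest at this site.

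Loss of peaks in antisense genes was within a few percentage points of that of all peaks in each line, below it in LOVO, RKO and OVCAR8 and above it in SKOV3. A region is a merged stretch of peaks on 1 strand that all lists of its group share, and a control region was lost if no knockdown peak overlapped it on its strand. In LOVO 412 of 1193 antisense control regions were lost, 34.5% (exact binomial 95% interval 31.8% to 37.3%), against 37.8% of all regions. In RKO 679 of 1167 were lost, 58.2% (55.3% to 61.0%), against 60.1% of all. In OVCAR8 403 of 742 were lost, 54.3% (50.6% to 57.9%), against 57.8% of all, and in SKOV3 414 of 870, 47.6% (44.2% to 51.0%), against 44.4% of all. These intervals cover counting error only. Loss on the own strand was 34.9%, 57.3%, 55.8% and 49.1% in LOVO, RKO, OVCAR8 and SKOV3, and on the opposite strand 34.8%, 55.02%, 52.5% and 43.6%. Regions in LINC genes, the intergenic long noncoding RNAs, were lost at 43.9%, 63.1%, 74.9% and 58.8% in the same lines.

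Gained regions are knockdown regions with no control peak on their strand. They made up 228 of 1015 antisense regions in LOVO, 22.5%, against 26.9% of all. In RKO they were 840 of 1335, 62.9%, against 54.9% of all. In OVCAR8 they were 139 of 459, 30.3%, against 25.9%, and in SKOV3 266 of 721, 36.9%, against 36.5%. On the own strand alone the gained share was 64.8% in RKO and 19.7% in LOVO.

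**Figure D4:**
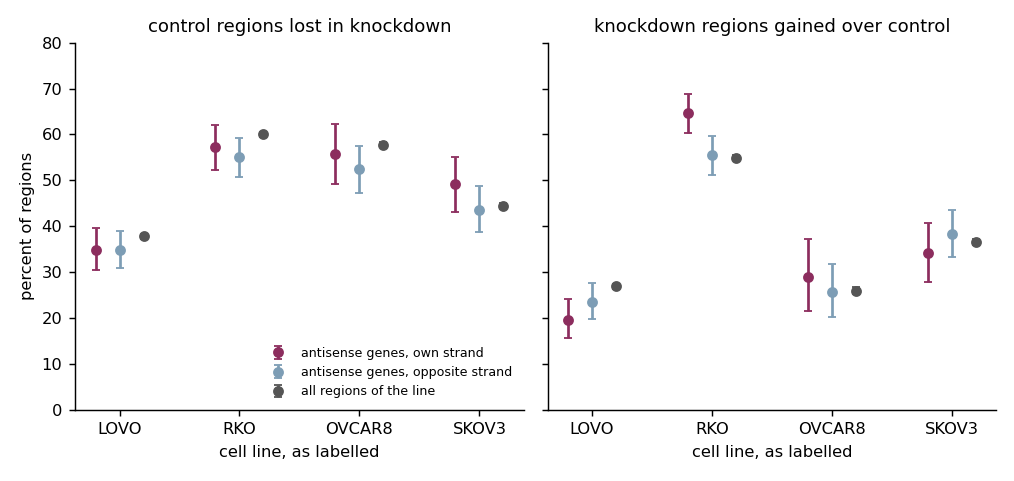
Percent of control regions lost in knockdown (left) and of knockdown regions gained over control (right) in each line, for antisense-gene regions on the own strand, on the opposite strand, and for all regions. Bars are exact binomial 95% intervals; lost own-strand regions range from 34.9% in LOVO to 57.3% in RKO.

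Lost shares by peak strength are given without a test. In LOVO, 54.8% of antisense control regions of the lowest tercile of all regions by score were lost, 41.7% of the middle tercile and 11.3% of the highest. The same shares over all LOVO regions were 58.9%, 40.8% and 13.7%. Terciles were ranked by score in RKO and by p-value in OVCAR8 and SKOV3. In the highest tercile of these lines the antisense share was 42.7% in RKO, against 39.6% of all regions. It was 35.6% in OVCAR8, against 34.7%, and 33.3% in SKOV3, against 26.6%. On the own strand alone that tercile lost 12.3% in LOVO, 51.1% in RKO, 28.4% in OVCAR8 and 36.2% in SKOV3.

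Set against the lists of the other ovarian line, 3 of the 4 shares were far lower. Of 742 OVCAR8 control antisense regions, 55 (7.41%) had no peak in the libraries labelled SKOV3 knockdown, against 14.6% of all regions, and on the own strand 13 of 233. Of 459 antisense regions in the libraries labelled OVCAR8 knockdown, 2 (0.436%) lay off every SKOV3 control peak, against 1.94% of all regions, and on the own strand 0 of 138, which allows a share of up to 2.17%. Of 721 regions of the libraries labelled SKOV3 knockdown, 63 (8.74%) had no OVCAR8 control peak, near the 8.81% of all regions. Of 870 SKOV3 control antisense regions, 361 (41.5%) had no peak in the libraries labelled OVCAR8 knockdown, against 44.3% of all regions. The OVCAR8 knockdown lists hold the fewest peaks of all lists.

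Gene by gene, 216 of the 573 antisense genes with a peak in LOVO had fewer peaks in knockdown (37.7%, against 43.1% of all genes) and 138 had more (24.1%, against 25.8%). In RKO 263 of 728 had fewer (36.1%, against 46.0%) and 338 had more (46.4%, against 36.5%). In OVCAR8 196 of 480 had fewer in every knockdown list than in every control list (40.8%, against 46.3%) and 87 had more (18.1%, against 15.3%). In SKOV3 173 of 560 had fewer (30.9%, against 31.6%) and 123 had more (21.96%, against 26.3%). Of a list of 47 well-studied antisense RNAs, 44 were in the table and 36 had a peak. Those with fewer and with more peaks in knockdown numbered 9 and 6 of 25 in LOVO, 10 and 14 of 31 in RKO, 6 and 5 of 22 in OVCAR8, and 13 and 6 of 28 in SKOV3.

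Some genes had own-strand peaks in every list of 1 condition and none in the other. In LOVO 35 of 175 antisense genes with own-strand peaks in control had none in knockdown (20%, against 13.3% of all genes), and 15 of 155 with such peaks in knockdown had none in control (9.68%, against 7.75%). In RKO the first count was 61 of 178 (34.3%, against 24.5%) and the second 112 of 229 (48.9%, against 22.8%). In OVCAR8 the first was 42 of 100 (42.0%, against 30.4%) and the second 23 of 80 (28.8%, against 14.4%), and in SKOV3 50 of 130 (38.5%, against 21.8%) and 24 of 98 (24.5%, against 16.7%). The median number of own-strand peaks of these antisense genes was 1 in LOVO and RKO control, against 2 over all genes. In OVCAR8 and SKOV3 control the median was 2 in both sets. The share of genes with 1 such peak in control was 50.3% against 33.4% in LOVO and 53.9% against 31.7% in RKO. In OVCAR8 it was 42.0% against 30.5%, and in SKOV3 37.7% against 32.8%. Among genes with 1 own-strand peak in control, the share with none in knockdown was 34.1% of antisense genes and 29.8% of all genes in LOVO, and 34.4% and 36.7% in RKO. It was 52.4% and 42.7% in OVCAR8 and 51.0% and 29.7% in SKOV3. Among genes with 1 own-strand peak in knockdown, the share with none in control was 18.2% of antisense genes and 17.9% of all genes in LOVO, and 57.9% and 28.0% in RKO. It was 36.1% and 15.5% in OVCAR8 and 38.5% and 22.3% in SKOV3. No antisense gene had this loss in all 4 lines, and 8 had it in both LOVO and RKO. Of the 42 genes in OVCAR8, 23 were among the 24 that had own-strand peaks only in knockdown in SKOV3, which is 54.8% of the first set and 95.8% of the second. Of the 23 with own-strand peaks only in knockdown in OVCAR8, 20 were among the 50 without them in SKOV3 knockdown, and 1 gene lost them in both lines. Overlaps between lines were counted for antisense genes only. Whether they differ from those of all genes was not tested.

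Of 4666 regions present in all 12 lists, 148 (3.17%) were in antisense genes. That share is near the 2.93% to 3.92% of all peaks of a list that lay in these genes. Of the 148, 47 were on the own strand in 36 genes and 76 on the opposite strand. In 29 of the 36 genes there was 1 such own-strand region. WARS2-AS1 held 5 of the own-strand regions and ABHD16B-AS1 3. Of 20 own-strand regions that touched no other gene, 4 were in WARS2-AS1, and the others were single regions of genes such as FGD5-AS1, PPP1R26-AS1, RAB4A-AS1 and MCM3AP-AS1. Only 41 of the 363 antisense genes with an own-strand peak had one in every list.

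WARS2-AS1 (chromosome 1, 119140396 to 119275973, plus strand) carried peaks on its own strand only. It had 9 in LOVO knockdown and 12 in LOVO control, and 6 in RKO knockdown and 10 in RKO control. It had 6 in each OVCAR8 knockdown list, against 10 and 9 in OVCAR8 control, and 10 and 8 in SKOV3 knockdown, against 7 and 10 in SKOV3 control. The SKOV3 groups overlapped, and 3 of 12 LOVO control regions were lost. MCM3AP-AS1 (chromosome 21, 46229231 to 46251701, plus strand), opposite the mRNA export factor MCM3AP, also had peaks on its own strand only. It had 4 in LOVO knockdown and 9 in control, 10 in RKO knockdown and 12 in control, 3 and 2 in OVCAR8 knockdown, against 14 and 13 in control, and 14 in each SKOV3 knockdown list, against 6 in each control list. The lists with 13 or 14 peaks were those labelled OVCAR8 control and SKOV3 knockdown. TTN-AS1, opposite the sarcomere protein titin, had 4 own-strand peaks in LOVO knockdown and 7 in control, and 5 in each RKO list. It had 3 and 1 in OVCAR8 knockdown, against 3 in each control list, and 3 and 2 in SKOV3 knockdown, against 5 and 6 in control. FGD5-AS1 and THAP9-AS1 each had 1 or 2 peaks in every list, all on the own strand. Of the 18 peaks of FGD5-AS1, 16 touched no other gene, whereas all 15 of THAP9-AS1 touched another gene. At the THAP9-AS1 region present in all lists another gene lay on the same strand, so strand does not separate the 2.

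DDX11-AS1 (chromosome 12, 31020763 to 31073847, minus strand) had the most lost LOVO regions of any antisense gene, 10 of 14. It had 6 peaks in LOVO knockdown and 14 in LOVO control, 4 in RKO knockdown and 5 in RKO control, none in any OVCAR8 list, and none in SKOV3 knockdown, against 3 and 4 in SKOV3 control. Of its 36 peaks 34 were on its own strand, and all 34 touched no other gene. LIPE-AS1, which spans the gene of hormone-sensitive lipase, lost 7 of 17 LOVO regions and 16 of 23 SKOV3 regions. It had 11 peaks in LOVO knockdown and 17 in control, 4 in RKO knockdown and 8 in control, 10 and 12 in OVCAR8 knockdown, against 10 and 14 in control, and 11 and 10 in SKOV3 knockdown, against 25 in each control list. PPP1R9A-AS1, within the gene of the actin-binding protein neurabin, lost 6 of 13 regions in LOVO and 17 of 18 in RKO, but 60 of its 61 peaks were on the neurabin strand. SLC44A3-AS1 lost 6 of 11 LOVO regions, and its strand is not in the table.

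The most regions gained by an antisense gene in LOVO were 4, in RNF213-AS1, opposite a large E3 ubiquitin ligase, in BCAN-AS2 and in PITX1-AS1. RNF213-AS1 had 18 peaks in LOVO knockdown and 17 in control, and 28 in RKO knockdown and 9 in control. It had 0 and 1 in OVCAR8 knockdown, against 8 and 6 in control, and 10 and 11 in SKOV3 knockdown, against 5 in each control list. PITX1-AS1 had 7 in LOVO knockdown and 3 in control, 6 and 2 of them on its own strand, and 11 in RKO knockdown and 3 in control.

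Among the genes with most lost or gained regions in RKO, RNF213-AS1 gained the most, 22 of 28 knockdown regions, and kept peaks in both RKO lists. Others were marked mainly in 1 of the 2 lists. NR2F2-AS1, opposite the orphan nuclear receptor NR2F2, had 15 own-strand peaks in RKO knockdown and 0 in RKO control. KCNMB2-AS1 had 20 peaks in RKO knockdown and none in any other list, and ADAMTS9-AS2 had 8 there and none elsewhere. MSRB3-AS1, near the methionine sulfoxide reductase gene MSRB3, had 0 in RKO knockdown and 16 in RKO control, 15 of them on its own strand, and none in any other list. LURAP1L-AS1 had 1 in RKO knockdown and 12 in RKO control, and SLC5A4-AS1 had 0 and 11. How far the list labelled RKO knockdown stands apart from RKO control, given above, applies to each of these values.

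In the ovarian lists most of the genes with most lost or gained regions had their peaks mainly under opposite labels in the 2 lines. LIPE-AS1 and MCM3AP-AS1, described above, had peaks in every list. Own-strand peaks of LIPE-AS1 were 8 and 10 in OVCAR8 knockdown, against 5 and 7 in control. In SKOV3 they were 6 and 5 in knockdown, against 20 and 21 in control. NR2F1-AS1, opposite the orphan nuclear receptor NR2F1, had no peak in OVCAR8 knockdown, against 10 and 9 in OVCAR8 control, and 9 in each SKOV3 knockdown list, against none in SKOV3 control. In LOVO it had 9 in knockdown and 10 in control. AFAP1-AS1 had 15 and 11 peaks in OVCAR8 knockdown, against 2 in each OVCAR8 control list, and 2 in each SKOV3 knockdown list, against 19 and 20 in SKOV3 control. GRM7-AS3 had none in OVCAR8 knockdown, against 12 and 10 in control, and 9 and 10 in SKOV3 knockdown, against none in control, all on the strand opposite its own. Its partner, a glutamate receptor gene, is on that strand, but the 2 gene bodies do not overlap. FLNC-AS1 had 6 in each OVCAR8 knockdown list, against none in control, and none in SKOV3 knockdown, against 8 and 10 in control, all on the strand of filamin C. HDAC2-AS2 had 2 and 4 in OVCAR8 knockdown, against none in control, and 0 and 1 in SKOV3 knockdown, against 12 and 13 in control. BCAN-AS2, whose strand is not in the table, had none in OVCAR8 knockdown, against 10 and 9 in control. It had 12 and 10 in SKOV3 knockdown, against 0 and 1 in control. In each gene named here from NR2F1-AS1 to BCAN-AS2 the lists labelled OVCAR8 knockdown were on the same side as SKOV3 control. MZF1-AS1 differed by strand: its own-strand peaks were 0 in each OVCAR8 knockdown list and each SKOV3 control list, against 6 in each OVCAR8 control list and 4 and 5 in SKOV3 knockdown, while on either strand together no list of it was empty.

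**Figure D5:**
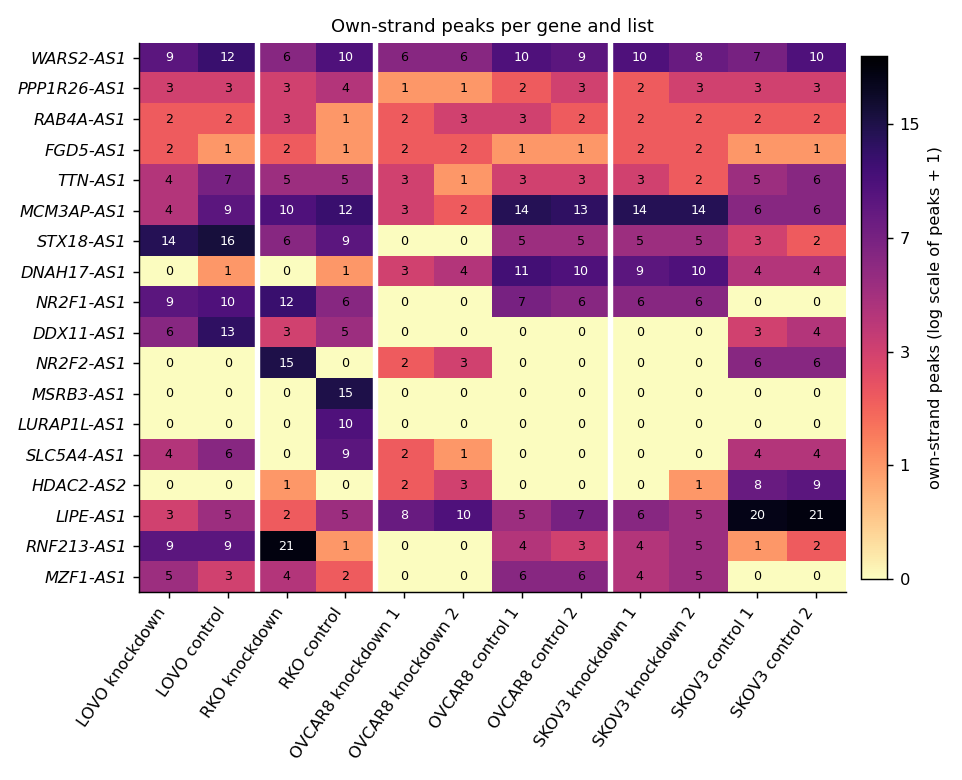
Own-strand peaks of 18 antisense genes (rows) in the 12 lists (columns), with the number of peaks in each cell and shading on a log scale of peaks + 1. WARS2-AS1 has 6 to 12 in every list, NR2F1-AS1 has none in OVCAR8 knockdown and SKOV3 control, and MSRB3-AS1 has 15 in RKO control only.

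Of 134 antisense genes with at least 20 peaks and a known strand, 21 had all peaks on their own strand, 40 had none there and 73 had both. STX18-AS1, opposite a syntaxin of the endoplasmic reticulum, had 70 peaks over the 12 lists and DNAH17-AS1, opposite an axonemal dynein heavy chain, 57, all on the own strand. Each of these 70 and 57 peaks also touched another gene. At the other end were ATXN7L3-AS1 with 74 peaks, CCDC86-AS1 with 62, MDC1-AS1 with 50, CRTC3-AS1 with 50 and TET2-AS1 with 49, all on the strand of the partner. Those partners include TET2, which oxidises methylated cytosine in DNA, and MDC1, a scaffold of the DNA damage response. Among genes with many peaks on both strands, PCGF3-AS1 had 73 of 114 on its own strand and LIPE-AS1 97 of 157, whereas ZKSCAN7-AS1 had 4 of 96, ZFHX3-AS1 8 of 74 and DLGAP4-AS1 5 of 91. All 73 own-strand peaks of PCGF3-AS1 also touched another gene. At its own-strand region present in all lists another gene lay on the same strand. The 4 own-strand peaks of ZKSCAN7-AS1 were all in the list labelled RKO knockdown.

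Other well-studied antisense RNAs with at least 2 peaks in a list ranged from 50 peaks over the 12 lists in CDKN2B-AS1 to 2 in MNX1-AS1. USP2-AS1 had 43 and LBX2-AS1 26, each with a peak in every list. CDKN2B-AS1 had 19 of 50 on its own strand, with 5 peaks in each LOVO list, 0 in RKO knockdown and 3 in RKO control, 4 and 5 in OVCAR8 knockdown, against 4 in each control list, and 4 in each SKOV3 knockdown list, against 6 in each control list. PSMA3-AS1 (28 peaks), NNT-AS1 (12) and OIP5-AS1 (8) were marked on the own strand only, and OIP5-AS1 had at most 3 peaks in a list. FOXD2-AS1 had 2 in LOVO knockdown and 3 in LOVO control, and FEZF1-AS1 3 and 2, with none in RKO knockdown and 3 in RKO control. HIF1A-AS3 had own-strand peaks in SKOV3 control only, 3 in each list. ZEB1-AS1 had 14 of 16 peaks on the strand of ZEB1, a transcription factor of epithelial-mesenchymal transition. HAND2-AS1 and MNX1-AS1 had a peak in at most 3 of the lists.

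Peaks on both strands at the same place were uncommon. A peak overlapped one of the opposite strand for 5.12% of antisense-gene peaks in LOVO knockdown and 5.70% in LOVO control, against 2.33% and 2.70% of all peaks. In RKO the shares were 8.09% in knockdown and 3.77% in control, against 6.09% and 3.06% of all peaks. In the 8 ovarian lists 0.565% to 2.97% of antisense-gene peaks did so, and 1.54% to 2.53% of all peaks.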

How the data were processed

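MeRIP-seq of chromatin-associated RNA was done in 32 libraries, 16 of MeRIP and 16 of input, and the 12 deposited peak lists were used. The deposited LOVO and RKO files are 1 list per group and hold a score for each peak, whose meaning no header gives; how the authors combined replicates in them is not stated. For OVCAR8 and SKOV3 the authors deposited 1 list per MeRIP library, with a fold enrichment (a linear ratio) and −log10 p-values and q-values per peak. Peaks were called separately by strand. The tools HISAT2 2.1.0, Bowtie2 2.4.2, MACS2 2.2.7.1 and Trim Galore 0.6.6 and the build hg38 are named per the submitters' processing notes. Folds and scores are the authors' and served to describe peaks. Within a list, peaks were ranked by score in LOVO and RKO and by −log10 p-value in OVCAR8 and SKOV3. Read depth and the METTL3 RNA level were not analysed here; lists held 15484 to 37398 peaks, and a list with fewer peaks has fewer chances of overlap.

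Peaks were intersected with RefSeq GRCh38.p14 gene bodies by at least 1 bp with python 3.11.15, numpy 2.4.6, pandas 2.3.3 and scipy 1.17.1, checked on simulated lists, and figures were drawn with matplotlib 3.10.9. No exon annotation was used. Each list gave 1 value for each of 4 measures, tested by a two-sided exact permutation of labels within lines with Benjamini-Hochberg adjustment over the 4, at a threshold of 0.05. Loss, gain and single genes are described without a test. Intervals are exact binomial (Clopper-Pearson). Named genes were the 10 with most peaks over groups, per line the 4 with most lost and 3 with most gained regions, 8 with a peak in every list, 6 with most own-strand peaks in no other gene, well-studied genes with at least 2 peaks in a list, and, of genes with at least 20 peaks, the 5 highest and 5 lowest by own-strand share. Members, lists and tests were chosen with earlier results of these data known. Descriptions of genes with own-strand peaks in 1 condition only, gene pairs, peaks on both strands, promoter windows and regions in all lists were added after the values were seen, and the 18 genes of the heat map were picked by hand among genes named in the text. Alternatives were overlap of 50%, only the strongest 50% of peaks, equal peaks per list, other region definitions, the other line's lists, replicates left out and a replicate block.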

Additional observations from a re-analysis of the deposited data

Results flagged for a closer look

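The knockdown minus control differences of single lines had opposite signs for all 4 measures, and the difference between lines was not tested in any of them. In log2 number of peaks in antisense genes, RKO was higher in knockdown by 0.19, while LOVO had -0.23, OVCAR8 -0.65 and SKOV3 -0.23. In the share of all peaks, RKO had 0.80 and OVCAR8 0.48 percentage points, against -0.024 in LOVO and -0.23 in SKOV3. In the share on the own strand, RKO had 5.31 and OVCAR8 0.98 points, against -2.39 in LOVO and -4.68 in SKOV3. In the share touching no other gene, RKO had 1.70 and OVCAR8 0.46 points, against -2.97 in LOVO and -4.94 in SKOV3. LOVO and RKO have 1 list per group. The lists labelled RKO, OVCAR8 and SKOV3 knockdown shared 37.1%, 64.5% and 57.1% of their antisense-gene peaks with their own control. For LOVO knockdown the share was 77.5%.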

How the results depend on the processing

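None of the 4 tested measures passed the threshold under any of the 15 or 16 alternatives each was run with (lowest adjusted p 0.111, for the number of peaks without RKO). The alternative without the libraries labelled OVCAR8 and SKOV3 has a smallest p of 0.5 and could not pass. In the main exact permutation test the smallest p was 0.0139, at which 1 measure alone could not pass after adjustment. These outcomes therefore do not show that there was no difference. The number of peaks turned to 0.067 on the log2 scale with equal peaks per list. The own-strand share turned to 0.42 points with equal peaks per list and to 1.46 points without the libraries labelled OVCAR8 and SKOV3, an alternative chosen after seeing the data, and it was -0.41 to 0.018 points when 1 replicate was left out. The replicate numbers share only a number: deviations of same-numbered replicates over antisense genes correlated at 0.0093 in OVCAR8 and -0.079 in SKOV3, and a permutation within replicate pairs (replicate block, smallest exact p 0.0313) left the differences at -0.23 log2, 0.256, -0.19 and -1.44 points with adjusted p of 0.417, 0.417, 0.938 and 0.417, so no call changed.

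Shares of lost and gained regions moved more. With 50% of a region overlapped, loss was 43.1% in LOVO, 66.6% in RKO, 63.2% in OVCAR8 and 55.7% in SKOV3, and gain 28.4% in LOVO, 68.5% in RKO and 42.9% in SKOV3. With equal peaks per list, loss was 31.5% in LOVO and 42.0% in OVCAR8, and gain 27.4% in LOVO and 41.7% in OVCAR8. In no other gene, loss was 40.1% in LOVO, 64.7% in RKO and 56.2% in SKOV3, and gain 19.4%, 69.8% and 31.9% in these lines; on the own strand, LOVO gain was 19.7%. With regions of any list, OVCAR8 loss was 60.3% and gain 36.8%, and SKOV3 loss 51.9% and gain 42.4%. Where absence from 1 list sufficed, OVCAR8 loss was 59.8%, and SKOV3 loss 52.9% and gain 41.7%. Against the lists labelled as the other ovarian line, OVCAR8 loss was 7.41% and gain 0.436%, and SKOV3 loss 41.5% and gain 8.74%. Leaving out 1 replicate gave 56.6% to 57.8% loss and 31.2% to 34.5% gain in OVCAR8, and 49.9% to 50.6% loss and 38.8% to 40.7% gain in SKOV3. The cause was not tested. Of 98 alternatives for named genes, 95 gave a share within the exact binomial 95% interval of the reported one, which is wide at these counts, and DDX11-AS1 (92.9% lost in LOVO), LURAP1L-AS1 (100% in RKO) and HDAC2-AS2 (100% in SKOV3) lay outside it with 50% overlap.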
